A study of Mus musculus with 12 samples.

Results

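The metabotropic glutamate receptor genes were followed in poly(A) RNA-seq of mouse hippocampus. Their 6 members, *Grm2*, *Grm3*, *Grm4*, *Grm5*, *Grm7* and *Grm8*, were chosen by gene symbol among the 37991 genes of the count files, and all 6 were among the 16399 genes that passed the expression filter. The 12 libraries came from 12 mice of the C57BL/6N strain, 6 labelled Wildtype and 6 labelled Gadd45a-KO (genotype *Gadd45a*-/-), which were offspring of heterozygous crosses. Every mouse, controls included, had gone through the passive avoidance (PA) test, in which a shock is paired with a dark compartment, and the hippocampus was taken 1 h later. Labels give an age of 6 to 7 months for both genotypes, whereas the study's methods name a younger range for its mice. In the mutant allele, according to the study's methods, a neomycin cassette takes the place of the leading exons of *Gadd45a* while its last exon is kept.

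Metabotropic glutamate receptors are G protein-coupled receptors that sense synaptic glutamate over longer times than the ion channel receptors. Group I receptors, such as the product of *Grm5*, lie mostly around the postsynaptic density and act through Gq, phospholipase C and release of calcium from the endoplasmic reticulum. Group II receptors (*Grm2*, *Grm3*) and group III receptors (*Grm4*, *Grm6*, *Grm7*, *Grm8*) act through Gi/o, which holds adenylyl cyclase down, and many of them sit on axon terminals and limit glutamate release. In hippocampus, group I receptors are known for a form of long-term depression that needs local protein synthesis.

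Between 44594261 and 55540601 reads per library fell on genes, so that 1 read was worth 0.0180 to 0.0223 CPM, the read count scaled to a fixed total on genes. The targeted gene was examined first, and its reads went against the labels. *Gadd45a* had 2.19 to 3.43 CPM in the libraries labelled Wildtype and 20.5 to 23.1 CPM in those labelled Gadd45a-KO, and the counts per gene do not separate exons. Libraries are therefore named by their labels, and every direction given here is that of the label. Genes of hippocampal neurons were read in every library, *Prox1* of dentate granule cells at 79.1 to 196 CPM. Replicates 2 and 3 labelled Gadd45a-KO stood apart by 8 genes typical of thalamus, whose summed level was 368 and 590 CPM against 120 to 162 CPM in the other 10 libraries. The defining gene *Tcf7l2* lay at 3.47 to 5.30 CPM in the libraries labelled Wildtype and reached 31.5 CPM among those labelled Gadd45a-KO. Replicate 3 also had the highest summed level of 6 oligodendrocyte genes, at 7310 CPM against 2320 to 3740 CPM in the others. None of these 14 marker genes passed 1% FDR between the labels. The summed CA1 pyramidal cell markers were lowest in replicates 2, 3 and 5 labelled Gadd45a-KO, at 407, 382 and 400 CPM against 513 to 808 CPM in the others. Where replicates 2 and 3 labelled Gadd45a-KO were the lowest or the highest of all 12 libraries for a named receptor or pathway gene, its fold change is given with and without them. In bulk tissue, fewer cells of a type and less RNA per cell cannot be told apart.

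One receptor gene of the 6, *Grm5*, was lower in the libraries labelled Gadd45a-KO. No receptor gene was higher. Over all tested genes, 2.62% fell and 0.0244% rose at this threshold, a false discovery rate (FDR) of 1%, so the share of 1 in 6 rests on a single gene. The median log2 fold change of the 6 was -0.07, with 4 negative, beside 0.00 over all tested genes, of which 7905 of 16399 were negative.

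*Grm5* (ENSMUSG00000049583), the group I member, spans 532 kb on the plus strand of chromosome 7, chr7:94750952-95283417 of NCBIM37. It encodes mGlu5, which is bound at its C-terminal tail by the Homer scaffolds. The coding sequence holds a single stretch for the Homer-binding pattern of proline, proline, any residue, any residue, phenylalanine, at codons 1156 to 1160 of 1203. It is shown because the scaffolds that hold the receptor through this site are among the pathway genes described further on. The stretch lies at chr7:95279218-95279262 on the plus strand of NCBIM37, read from the reference genome, with the codons of the pattern in capitals.
Grm5: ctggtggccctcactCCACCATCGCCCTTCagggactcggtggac
*Grm2* and *Grm7* hold the same pattern at codons 186 to 190 of 872 and 200 to 204 of 922, toward the N-terminus. The coding sequences of *Grm3*, *Grm4* and *Grm8* do not hold it.

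*Grm5* was read at 281 CPM at the lowest, 305 at the median and 343 at the highest in the libraries labelled Wildtype. In those labelled Gadd45a-KO the lowest value was 214 CPM, the median 244 and the highest 264. The labels did not overlap: all 6 libraries labelled Gadd45a-KO lay below the lowest one labelled Wildtype, as was so in either direction for 3.31% of all tested genes. The means were 306 ± 21.3 and 243 ± 17.3 CPM (SD, n = 6 per label), on 13252 to 18032 and 10765 to 12899 reads. This is a log2 fold change of -0.33 with a standard error (SE) of 0.05 and a 95% interval of -0.45 to -0.22, or a ratio of 0.793. The adjusted p was 0.00193 (edgeR, quasi-likelihood test, Benjamini-Hochberg over all tested genes). A two-sided exact permutation test of *Grm5* by itself gave p = 0.00216, the smallest p that 6 against 6 libraries allow.

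Both libraries with raised thalamic genes had low *Grm5*, replicate 3 the lowest at 214 CPM and replicate 2 the next at 237 CPM. Without both, the log2 fold change of *Grm5* was -0.28 (SE 0.05) and its adjusted p was 0.0108 from the edgeR test, just over the threshold of 1% FDR, with 6 against 4 libraries. The 4 remaining libraries, at 243 to 264 CPM, still lay below all those labelled Wildtype (p = 0.00476 in the two-sided exact permutation test, the lowest that 6 against 4 can give). With the thalamic marker level as a covariate in all 12 libraries, the log2 fold change was -0.28 and the adjusted p 0.00627. An offset for transcript length together with the replicate number as a block also gave -0.28, with an adjusted p of 0.0122. *Grm5* had the longest merged exons of the 6 genes, 8072 nt, and the longest annotated 3′UTR, 4041 nt against 484 to 3359 nt. Poly(A) selection favours reads near the 3′ end, and reads along the transcripts were not analysed here. With the length offset alone the adjusted p was 0.00686. Across the 20 alternatives other than the 2 that missed the threshold, the log2 fold change of *Grm5* stayed between -0.35 and -0.28 and past its threshold.

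**Figure D1:**
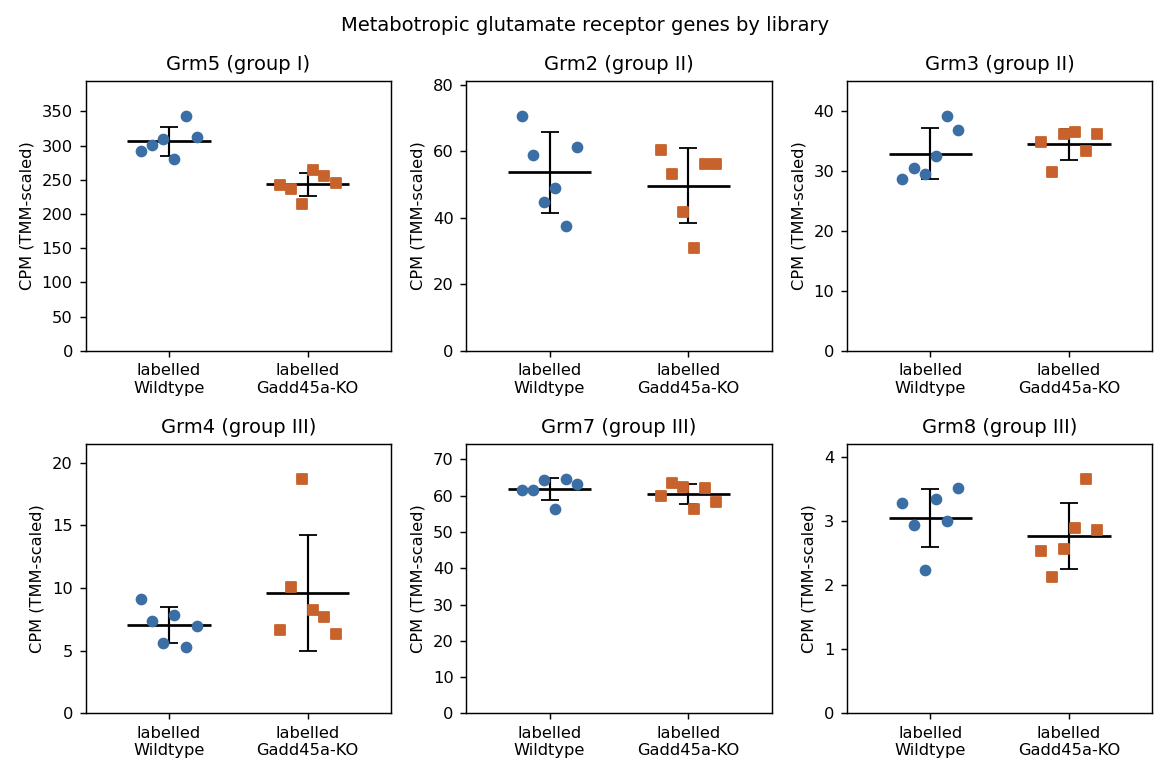
TMM-scaled CPM of the 6 receptor genes in each library, one panel per gene with its own axis from 0. Points are libraries (blue circles labelled Wildtype, orange squares labelled Gadd45a-KO, 6 each), and black bars give the mean ± SD. The labels are apart in the panel of *Grm5*, at 281 to 343 against 214 to 264 CPM, and overlap in the other 5, with 1 high square at 18.7 CPM in the panel of *Grm4*.

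Neither group II gene differed between the labels beyond the spread of the libraries. *Grm2* (ENSMUSG00000023192, chr9:106546868-106558440 of NCBIM37, minus strand) encodes mGlu2, a presynaptic autoreceptor known from the mossy fibre terminals of dentate granule cells. Its lowest, median and highest values were 37.4, 53.9 and 70.5 CPM for the Wildtype label and 30.8, 54.5 and 60.3 CPM for the Gadd45a-KO label. The ranges overlapped over most of their length, and the coefficients of variation of 22.6% and 22.5% were above the 6.95% and 7.13% of *Grm5*. The log2 fold change was -0.11 (SE 0.17, adjusted p = 0.867, edgeR), and its 95% interval ran from -0.47 to 0.25. That interval includes a difference as large as the one of *Grm5*.

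*Grm3* (ENSMUSG00000003974, chr5:9485236-9725352, minus strand) encodes mGlu3, which is found on glia as well as neurons and responds to the peptide transmitter NAAG. It was read at 28.7, 31.6 and 39.2 CPM (lowest, median, highest) under the Wildtype label. Under the Gadd45a-KO label it stood at 29.8, 35.6 and 36.5 CPM, inside the range of the other label. Its log2 fold change was 0.07 (SE 0.08, 95% interval -0.10 to 0.23, adjusted p = 0.802, edgeR). It was 0.10 (SE 0.08, adjusted p = 0.965) without replicates 2 and 3 labelled Gadd45a-KO.

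Of the group III genes, *Grm7* varied least and *Grm4* most. *Grm7* (ENSMUSG00000056755) spans 922 kb, chr6:110595575-111517224 on the plus strand, 43.6 Mb from *Gadd45a* on the same chromosome. Its product mGlu7 sits in the presynaptic active zone and has a low affinity for glutamate. It had 56.3, 62.4 and 64.6 CPM (lowest, median, highest) in the libraries labelled Wildtype and 56.2, 60.9 and 63.4 CPM in those labelled Gadd45a-KO, nearly the same range. With coefficients of variation of 4.91% and 4.55%, the interval was narrow: the log2 fold change was -0.04 (SE 0.04, 95% interval -0.12 to 0.05, adjusted p = 0.789, edgeR). It was -0.07 (SE 0.05, adjusted p = 0.883) without replicates 2 and 3 labelled Gadd45a-KO.

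*Grm8* (ENSMUSG00000024211, chr6:27225121-28085178, minus strand) lies 38.9 Mb to the other side of *Gadd45a* and encodes mGlu8, a presynaptic receptor with a high affinity for glutamate. It was the scarcest member, with 97 to 185 reads per library. The values were 2.24, 3.14 and 3.52 CPM for the Wildtype label and 2.13, 2.72 and 3.66 CPM for the Gadd45a-KO label, which reached beyond the other at both ends. The log2 fold change was -0.14 (SE 0.13, adjusted p = 0.751, edgeR), and the 95% interval, -0.42 to 0.14, includes a difference as large as that of *Grm5*. Replicate 2 labelled Gadd45a-KO was the lowest library, and without replicates 2 and 3 of that label the log2 fold change was -0.03 (SE 0.13).

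*Grm4* (ENSMUSG00000063239, chr17:27559332-27650286, minus strand) encodes mGlu4, known for high levels in cerebellar granule cells and in thalamus. In the libraries labelled Wildtype its values were 5.32, 7.20 and 9.11 CPM. In those labelled Gadd45a-KO they were 6.31, 7.94 and 18.7 CPM. Replicates 2 and 3, at 10.1 and 18.7 CPM, lay above every library labelled Wildtype, and these are the libraries with raised thalamic genes. The log2 fold change was 0.45 (SE 0.24, 95% interval -0.06 to 0.96, adjusted p = 0.452, edgeR). Without both it was 0.03 (adjusted p = 1.00), and with the thalamic marker level as a covariate 0.00.

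*Grm6*, the retinal member of group III, had 2 reads in all, in 2 of 12 libraries, and was not tested.

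**Figure D2:**
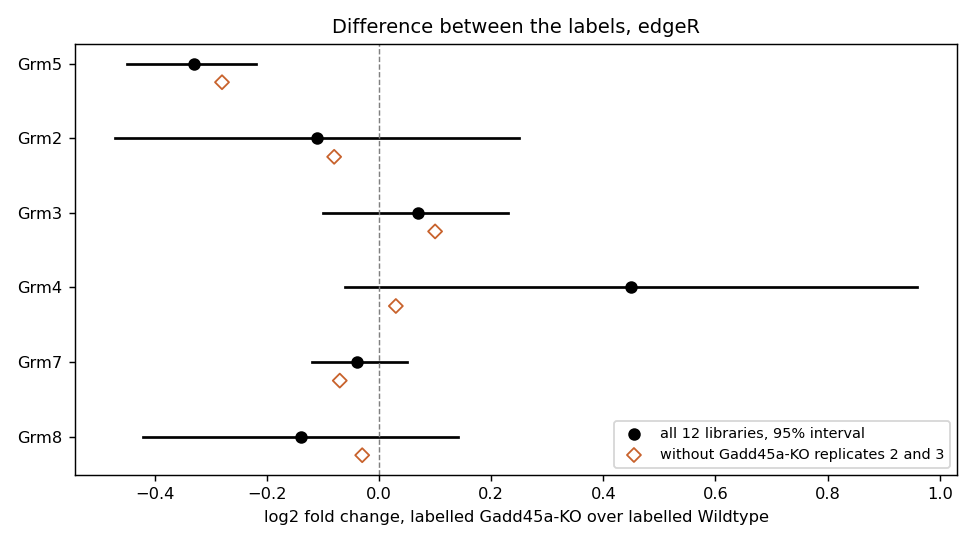
Log2 fold change of the libraries labelled Gadd45a-KO over those labelled Wildtype for the 6 members. Black points with bars are edgeR estimates from all 12 libraries with 95% intervals, and open diamonds the estimates without replicates 2 and 3 labelled Gadd45a-KO. The interval of *Grm5*, -0.45 to -0.22, does not reach 0, and the diamond of *Grm4* lies at 0.03 against 0.45 with all libraries.

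Levels of different genes were compared per length, as CPM per kilobase of merged annotated exons (RPKM). *Grm5* had the highest level of the 6, 38.0 ± 2.64 RPKM under the Wildtype label and 30.1 ± 2.15 RPKM under the Gadd45a-KO label (SD, n = 6). *Grm2* came next at 16.1 ± 3.64 and 15.0 ± 3.37 RPKM. It was followed by *Grm7* at 10.5 ± 0.517 and 10.2 ± 0.467 RPKM and *Grm3* at 9.20 ± 1.18 and 9.65 ± 0.729 RPKM. *Grm4* stood far lower, at 1.33 ± 0.266 and 1.81 ± 0.877 RPKM, and *Grm8* at 0.389 ± 0.0576 and 0.354 ± 0.0656 RPKM. The order of the means was the same under both labels. The ranges of *Grm7* and *Grm3* overlapped under both, and those of *Grm2* and *Grm7* under the Gadd45a-KO label. Neighbours in the order were not compared within each library, and per longest transcript *Grm7* and *Grm3* did not overlap. *Grm5* made up 50.3% ± 3.21 of the summed RPKM of the 6 genes under the Wildtype label and 44.9% ± 3.38 under the Gadd45a-KO label.

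**Figure D3:**
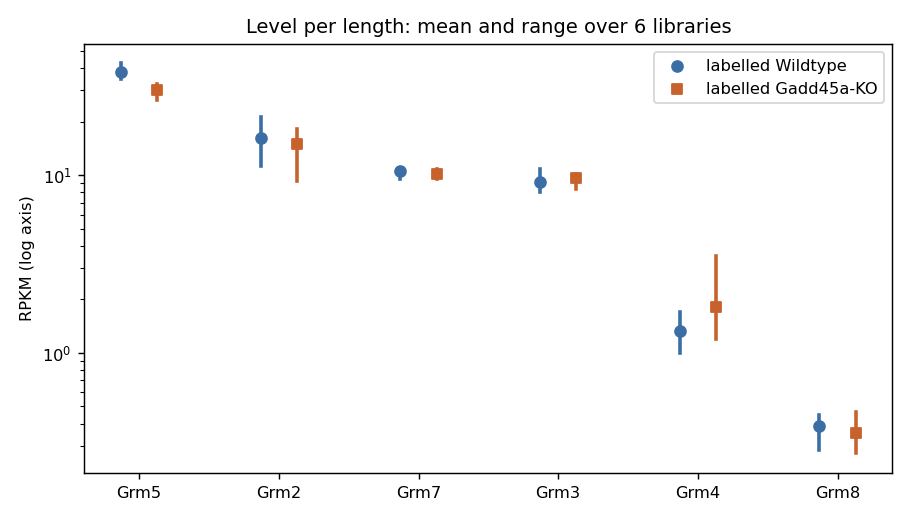
Level per length of the 6 receptor genes in RPKM on a log axis, ordered by the mean under the Wildtype label. Points are means and vertical lines the full range over 6 libraries (blue circles labelled Wildtype, orange squares labelled Gadd45a-KO). Levels fall from 38.0 RPKM for *Grm5* to 0.389 RPKM for *Grm8* under the Wildtype label.

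Among libraries of one label, the members were next set against 12 lists of cell type and tissue markers, to ask which of them varied with the make-up of the dissection. Each gene's log2 CPM and each list's mean log2 CPM were taken as deviations from the mean of their label, so that the difference between the labels took no part. The permutation takes the libraries of a label as independent. Of 72 pairs of member and list, 4 passed an adjusted p of 0.05 with Pearson's r, and 1 with Spearman's rho.

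*Grm2* followed the dentate granule cell markers (*Prox1*, *C1ql2*, *Dsp*, *Tdo2*, *Lct*, *Calb1*) most closely. Over 12 libraries r was 0.944 (exact permutation within labels, two-sided p = 7.5e-05, Benjamini-Hochberg adjusted p = 0.00541) and rho 0.937 (exact p = 5e-05, adjusted p = 0.00361). It was 0.919 among the libraries labelled Wildtype (exact p = 0.0125, n = 6) and 0.992 among those labelled Gadd45a-KO (exact p = 0.00139, n = 6). Without the 2 libraries farthest from the median marker level, r was 0.891 (exact p = 0.00226, n = 10). Replicate 4 labelled Gadd45a-KO had the lowest *Grm2*, 30.8 CPM, and the lowest summed level of these markers, 361 CPM. Without that library, the log2 fold change of *Grm2* went from -0.11 to 0.00.

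*Grm4* went with the thalamic markers, with r = 0.870 (exact p = 0.000569, adjusted p = 0.0158) and rho = 0.839 (exact p = 0.00159, adjusted p = 0.0572). Among the libraries labelled Wildtype r was 0.849 (exact p = 0.0444, n = 6), and among those labelled Gadd45a-KO it was 0.918 (exact p = 0.0111, n = 6). Without replicates 2 and 3 labelled Gadd45a-KO, r was 0.770 (exact p = 0.0319, n = 10). Thalamic and dentate markers themselves rose and fell together among the libraries labelled Wildtype (r = 0.964 between the lists) but not among those labelled Gadd45a-KO (r = -0.139). Accordingly, among the libraries labelled Wildtype *Grm2* had r = 0.967 with the thalamic markers (exact p = 0.00417, n = 6) and *Grm4* had r = 0.826 with the dentate markers (exact p = 0.0625, n = 6), so these 6 libraries do not separate the lists. Over all 12 libraries *Grm2* had r = 0.0185 with the thalamic markers (exact p = 0.958, adjusted p = 0.958), and 0.727 without replicates 2 and 3 labelled Gadd45a-KO (exact p = 0.00961, n = 10). *Grm4* also went with the list drawn up for cerebellum (r = 0.841, exact p = 0.000876, adjusted p = 0.0158; rho = 0.832, exact p = 0.00257, adjusted p = 0.0617, and r = 0.776 without the same libraries). However, the defining cerebellar genes *Pcp2* and *Gabra6* were at or under 0.144 CPM in every library, and the list's level came from *Zic1*, *Calb2* and *Cbln1*, of which *Zic1* and *Calb2* are expressed in thalamus too.

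*Grm7* went against the markers of GABAergic interneurons (*Gad1*, *Gad2*, *Slc32a1*, *Sst*, *Pvalb*, *Vip*, *Npy*), with r = -0.844 (exact p = 0.000851, adjusted p = 0.0158). The rank correlation missed the threshold, with rho = -0.741 (exact p = 0.0124, adjusted p = 0.179). Within the labels r was -0.791 (Wildtype, exact p = 0.0681, n = 6) and -0.961 (Gadd45a-KO, exact p = 0.00278, n = 6), and without the 2 farthest libraries -0.726 (exact p = 0.039, n = 10). Since *Grm7* varied so little, these are deviations of a few percent.

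*Grm5* did not pass with any list. It had r = -0.675 with the thalamic markers (exact p = 0.00627, adjusted p = 0.0903; rho = -0.608, exact p = 0.0316, adjusted p = 0.243), and -0.404 without replicates 2 and 3 labelled Gadd45a-KO (exact p = 0.374, n = 10). Within the labels r was -0.471 (Wildtype, exact p = 0.361, n = 6) and -0.864 (Gadd45a-KO, exact p = 0.0194, n = 6), the latter with replicates 2 and 3 included. With the oligodendrocyte markers r was -0.747 (exact p = 0.0134, adjusted p = 0.151; rho = -0.65, exact p = 0.0271, adjusted p = 0.243), and -0.0683 without the 2 libraries farthest from the median. For the CA1 pyramidal cell markers r was 0.526 (exact p = 0.0974, adjusted p = 0.438), with 0.444 and 0.609 within the Wildtype and Gadd45a-KO labels. Leaving out the 2 libraries farthest from the median of that list gave 0.574 (exact p = 0.0539, n = 10). With the CA3 and CA2 pyramidal cell markers r was -0.578 (exact p = 0.063, adjusted p = 0.407), and -0.347 without the 2 farthest libraries. Within the labels it was -0.284 (Wildtype) and -0.957 (Gadd45a-KO, exact p = 0.00694, n = 6). The list drawn up for cerebellum gave -0.682 (exact p = 0.0147, adjusted p = 0.151), and -0.489 without replicates 2 and 3 labelled Gadd45a-KO. *Grm3* showed no steady relation with 6 astrocyte markers: r was 0.768 among the libraries labelled Wildtype (exact p = 0.0819, n = 6) and -0.852 among those labelled Gadd45a-KO (exact p = 0.0667, n = 6). For *Grm8*, the lowest exact p was 0.0238, with the choroid plexus markers (r = -0.675, adjusted p = 0.214).

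**Figure D4:**
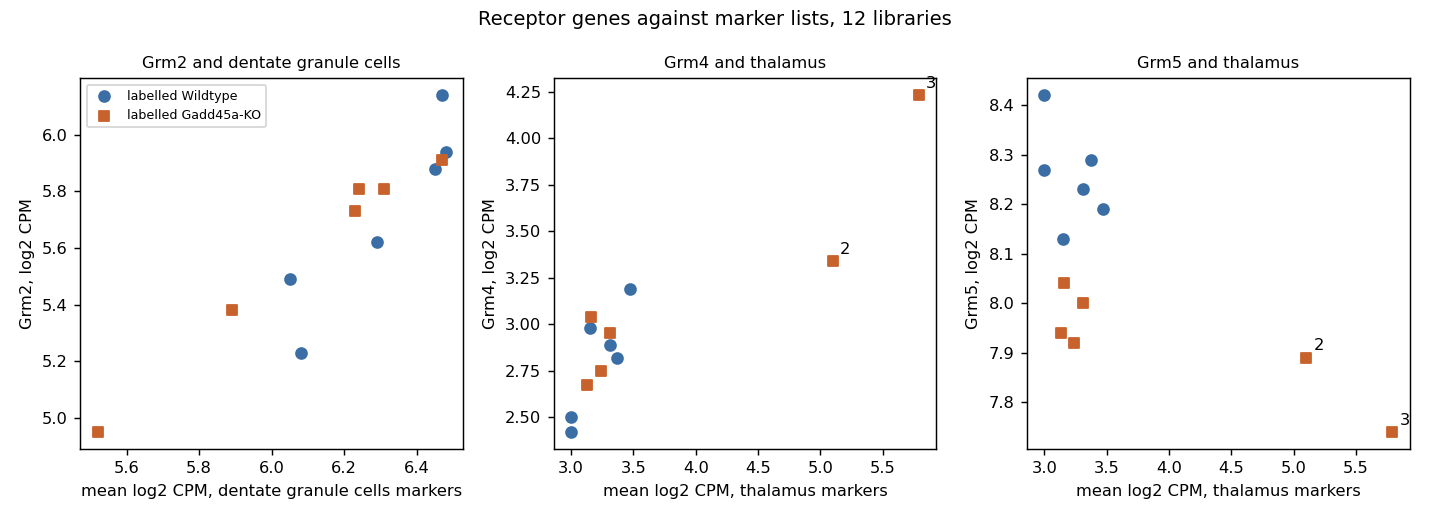
Log2 CPM of *Grm2* against the mean log2 CPM of dentate granule cell markers, and of *Grm4* and *Grm5* against that of thalamic markers, with 1 point per library (blue circles labelled Wildtype, orange squares labelled Gadd45a-KO). Numbers mark replicates 2 and 3 labelled Gadd45a-KO. *Grm2* rises with its markers along 1 line for both labels (r = 0.944), while in the panel of *Grm5* the 2 marked libraries lie at the far right and lowest.

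Members varied against each other as well. Over deviations from the label means in 12 libraries, *Grm5* and *Grm4* had r = -0.769, with -0.820 and -0.791 within the Wildtype and Gadd45a-KO labels and -0.519 without replicates 2 and 3 labelled Gadd45a-KO (n = 10). The other pairs lay between -0.444 and 0.406, and several changed sign between the labels, such as *Grm5* and *Grm7* with 0.830 and -0.600. In the 10 libraries without replicates 2 and 3 labelled Gadd45a-KO, the pair of *Grm5* and *Grm4* did not stand out. There *Grm5* had r = -0.621 with *Grm2*, 0.614 with *Grm3* and 0.567 with *Grm7*, and *Grm4* had 0.558 with *Grm8* and -0.528 with *Grm7*.

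Genes whose deviations were most like each member's were taken as the 3 with the highest r over the 12 libraries among all tested genes, as a description. *Grm5* was most like *Chl1*, a cell adhesion gene (r = 0.944), *Wdr48* (0.943) and *Akap5*, a postsynaptic kinase anchor (0.915). Between the labels *Chl1* fell short of the threshold, its log2 fold change being -0.32 (adjusted p = 0.0121, edgeR). *Grm2* was most like *Fam163b* (0.969), the potassium channel gene *Kcng1* (0.967) and *Pitpnm2* (0.965). For *Grm4* the nearest were the NMDA receptor subunit gene *Grin2d* (0.954), *Relt* (0.947) and the nicotinic receptor subunit gene *Chrna4* (0.944). *Grm7* had *Hltf* (0.961), *Naa15* (0.929) and *Zfp958* (0.919). *Grm8* had *Tshz2* (0.961), the relaxin receptor gene *Rxfp1* (0.940) and the neuropeptide gene *Nts* (0.920). *Grm3* had the lowest likeness, with *9430020K01Rik* (0.888), *Olfr920* (0.882) and *Atp6v0a2* (0.881).

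The partners and effectors of the receptors were described from 6 lists with 56 genes, all of which were tested. Only *Frmpd4* passed 1% FDR, in the lower direction, and none passed in the higher direction. That is 1 of 56 beside 2.62% of all tested genes. The median log2 fold change was -0.01, and 29 of 56 were negative.

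Scaffolds and binding partners of group I receptors held that gene, with 1 of 11 lower and a median of -0.06. *Frmpd4*, which encodes a scaffold that binds group I receptors, Homer and PSD-95, had 115 to 144 CPM in the libraries labelled Wildtype and 90.0 to 103 CPM in those labelled Gadd45a-KO, without overlap. Its log2 fold change was -0.39 (SE 0.05, adjusted p = 0.000584, edgeR). Without replicates 2 and 3 labelled Gadd45a-KO it was -0.39 as well (adjusted p = 0.00494). The Homer genes, whose products hold the site shown for *Grm5*, did not pass. *Homer1* had a log2 fold change of -0.28 (SE 0.08, adjusted p = 0.0864), *Homer2* -0.23 (SE 0.09, adjusted p = 0.24) and *Homer3* 0.10 (SE 0.08, adjusted p = 0.69). Replicates 2 and 3 labelled Gadd45a-KO were the lowest for *Homer1* and *Homer2*, whose values without them were -0.21 (adjusted p = 0.415) and -0.14 (adjusted p = 0.837). The most abundant gene of the list by CPM was *Ncdn*, encoding the mGlu5-binding protein neurochondrin, at 2990 ± 327 and 2860 ± 182 CPM (adjusted p = 0.792).

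In the Gq and phospholipase C arm 0 of 10 genes passed, with a median of -0.04. *Itpr1*, the inositol trisphosphate receptor, had 635 ± 97.7 and 514 ± 99.8 CPM, its log2 fold change being -0.30 (adjusted p = 0.268). Replicates 2 and 3 labelled Gadd45a-KO were its lowest at 397 and 436 CPM, and without them the value was -0.17 (adjusted p = 0.867). *Plcb1*, the phospholipase C enzyme that acts downstream of mGlu5 in forebrain, went from 279 ± 19.9 to 245 ± 10.2 CPM, a log2 fold change of -0.19 with an adjusted p of 0.0353, which passes 5% but not 1% FDR (-0.18 and 0.118 without the same libraries).

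The Gi/o, adenylyl cyclase and GIRK channel arm of groups II and III had 0 of 12 genes past the threshold and a median of 0.02. *Adcy1*, a calcium-stimulated adenylyl cyclase, had 2130 ± 270 and 1820 ± 263 CPM (log2 fold change -0.23, adjusted p = 0.31). Its lowest libraries were again replicates 2 and 3 labelled Gadd45a-KO, at 1580 and 1550 CPM, and without them the log2 fold change was -0.13 (adjusted p = 0.926). Among RGS proteins, receptor kinases and arrestins, which end receptor signalling, 0 of 9 passed with a median of 0.01. *Arrb1* (beta-arrestin) had 280 ± 13.9 and 293 ± 10.7 CPM (adjusted p = 0.52). Replicate 2 labelled Gadd45a-KO was its highest library, at 305 CPM. The log2 fold change of *Arrb1* was 0.07 both with and without replicates 2 and 3 of that label. None of the 3 partners of group III receptors passed (median -0.07), with *Elfn2*, a postsynaptic adhesion protein that binds group III receptors across the synapse, at 134 ± 5.95 and 127 ± 17.8 CPM (adjusted p = 0.741). *Elfn2* was lowest in the same libraries, and its log2 fold change went from -0.08 to 0.02 without them.

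Supply and clearance of glutamate and NAAG, the agonists of the receptors, had 0 of 11 genes past the threshold and a median of 0.02. *Slc1a2*, the main astrocyte glutamate transporter, had 3140 ± 216 and 2780 ± 171 CPM (log2 fold change -0.18, adjusted p = 0.103), and -0.13 (adjusted p = 0.435) without replicates 2 and 3 labelled Gadd45a-KO. The point farthest from 0 in this list was the vesicular transporter *Slc17a6*, also in the thalamic marker list, with a log2 fold change of 1.22 (SE 0.52, adjusted p = 0.31) and a range from 5.57 to 49.1 CPM under the Gadd45a-KO label. Replicates 2 and 3 held its highest values, 33.1 and 49.1 CPM, and without them the log2 fold change was 0.07 (adjusted p = 1.00).

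**Figure D5:**
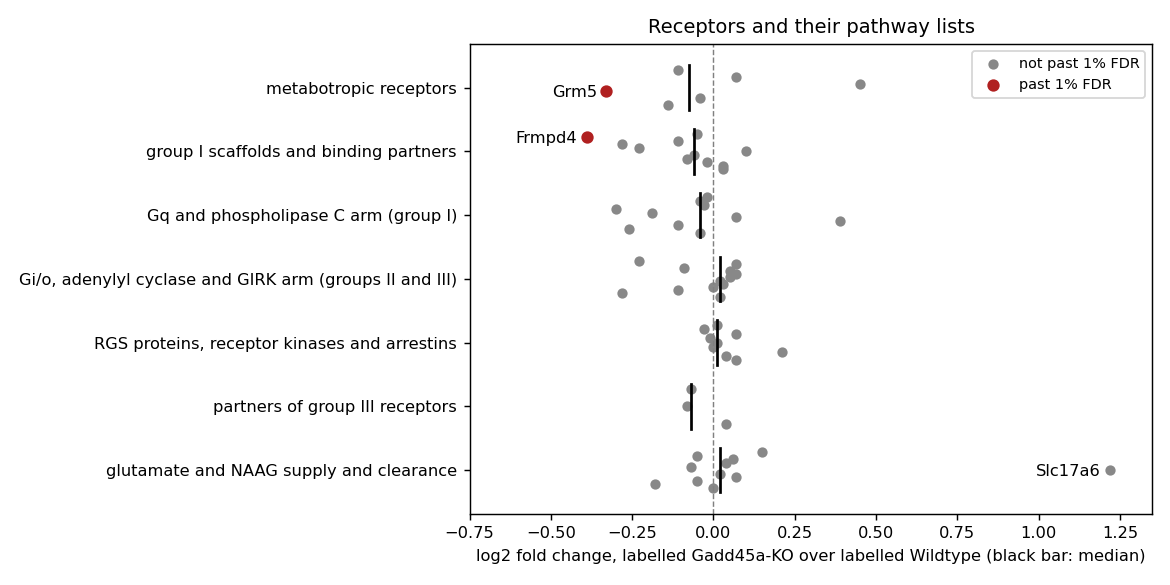
Log2 fold change (labelled Gadd45a-KO over labelled Wildtype, edgeR) of the 6 receptor genes and of the genes in 6 pathway lists, with 1 point per gene and a black bar at each list's median. Red points passed 1% FDR: *Grm5* at -0.33 and *Frmpd4* at -0.39. The list medians lie between -0.07 and 0.02.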

How the data were processed

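The authors sequenced stranded poly(A) libraries with single reads of 51 bases, aligned them with TopHat 1.4.1 to NCBIM37/mm9 and counted reads per Ensembl gene with HTSeq 0.5.4p3. The deposited values are whole counts, neither normalized nor pooled. Groups and replicate numbers come from the sample titles. Genes were named, and exon lengths taken, from GENCODE vM1 of the same build, an earlier release, which matched 37205 of 37991 IDs. No stretch of 51 bases in a member's annotated coding-gene transcripts was shared with another gene. *Mir592* overlaps *Grm8* on the same strand.

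Counts were filtered and TMM-normalized with edgeR 4.0.16 (R 4.3.3) and put through its quasi-likelihood test with the label as the only term and Benjamini-Hochberg adjustment over 16399 genes at 1% FDR, the study's threshold. Each SE is the fold change on the log2 scale divided by the root of F, and 95% intervals use the test's degrees of freedom. Log2 CPM values have a prior count of 2. Exact permutation tests were run in Python 3.11.15 with numpy 2.4.6, over 924 regroupings of 6 against 6 libraries or, for correlations, 518400 orders within labels. Figures used matplotlib 3.10.9. DESeq2 1.42.0, RLE size factors, 2 other count filters, 5% FDR, a replicate block, a length offset and leaving out each library were set as alternatives at the outset. Leaving out the libraries with raised thalamic genes and a thalamic covariate were added after the data were seen. The edgeR fit, its versions with the replicate block and with the length offset, and DESeq2 were tested on simulated counts.

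The members, and the pathway and marker lists, were chosen with earlier results of these data known, and *Grm5* is a gene that the study names. Genes were named by rule: every member, the targeted gene, in each pathway list those past 1% FDR and the most abundant by CPM, and 3 nearest genes per member. *Homer1*, *Homer2*, *Homer3*, *Plcb1*, *Slc17a6* and the marker genes were named outside that rule. No source says that animals were pooled, and n counts libraries. No library was a duplicate of another (chi-square per degree of freedom 8.60 to 37.8 over the 30 pairs within labels). Of the markers, *Pou3f1*, *Pcp2* and *Gabra6* did not pass the filter and *Lamp5* was not matched. A withheld item is not reported here.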

Additional observations from a re-analysis of the deposited data

Results flagged for a closer look

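*Grm4* in replicate 3 labelled Gadd45a-KO stood far from the other 5 libraries of its label, at 18.7 CPM against 6.31 to 10.1 CPM, with a gap of 0.698 of the label's whole range. This was the only far library among 28 sets of 6 examined. At about 1 in 20, chance alone would give 1.4 over these sets. Why this library stood apart was not tested. The same library had the highest summed thalamic markers, 590 CPM, and the highest summed oligodendrocyte markers, 7310 CPM. The log2 fold change of *Grm4*, 0.45 with all libraries, was 0.15 without that library, 0.03 without replicates 2 and 3 of that label, and 0.00 with the thalamic marker level as a covariate. With the oligodendrocyte markers *Grm4* had r = 0.726 over 12 libraries (exact p = 0.0681, adjusted p = 0.407), and -0.434 without the 2 libraries farthest from the median (exact p = 0.236, n = 10).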

How the results depend on the processing

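Of the 22 alternatives to the edgeR fit, 20 kept *Grm5* as the 1 member lower and all 22 had 0 members higher. The count was 0 with the length offset and replicate block together (log2 fold change -0.28, adjusted p = 0.0122) and without both thalamus-rich libraries (-0.28, adjusted p = 0.0108). Its log2 fold change was -0.35 to -0.29 when single libraries were left out. For *Grm2* the sign turned without replicate 4 labelled Gadd45a-KO, at 0.00 in the fit and 0.02 in the exact test (p = 0.931). The lowest values were -0.19 and -0.21. *Grm4* ranged from 0.00 to 0.56 and passed in none. Over all genes, 661 were lower and 19 higher with DESeq2, 273 and 9 with the length offset, 10 higher with the length offset and block, 726 and 20 at 5% FDR, 243 and 2 with the thalamic covariate, and 199 lower without both thalamus-rich libraries. Leaving out single libraries gave 239 to 467 lower and 3 to 4 higher. Pathway genes lower were 2 with DESeq2 and 2 at 5% FDR. The causes of these changes were not tested.

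Deviations of same-numbered libraries over 16399 genes had r = 0.127, 0.245, 0.262, 0.179, 0.103 and -0.0761 for numbers 1 to 6. Their mean was 0.14, and that for other numbers -0.0279. Because deviations within a label cancel out, the mean for other numbers is largely set by that for equal numbers and is no separate comparison. In 1 of 6 the own number matched best. Since number 6 stayed under 0.1 and no source ties the numbers to a litter or batch, the fit without the block was kept, and sharing between equal numbers is not excluded. The replicate block gave 509 genes lower and *Grm5* at -0.33 (adjusted p = 0.00366), and changed no other member's call. Spearman's rho left 1 of the 4 pairs of member and marker list past the threshold. RPKM per longest transcript was 44.4 and 35.2 for *Grm5*, 14.7 and 14.3 for *Grm7* and 0.636 and 0.578 for *Grm8* (Wildtype and Gadd45a-KO labels). The order of genes was the same, with *Grm2* and *Grm7* overlapping under both labels. *Grm7* then lay above *Grm3* without overlap, at 13.4 to 15.4 against 8.13 to 11.1 RPKM under the Wildtype label. Under the Gadd45a-KO label the ranges were 13.3 to 15.1 and 8.43 to 10.3 RPKM. With 97 to 185 reads per library, the 95% interval of *Grm8* includes the difference seen for *Grm5*.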
